A study of Arabidopsis thaliana with 4 samples.

Results

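The WRKY genes described here are WRKY6, WRKY47, WRKY20, ZAP1 (the gene also called WRKY1), WRKY22 and WRKY53, followed in rosette leaves of Arabidopsis thaliana. They are 6 of the 7 WRKY genes that the platform annotation gives a probe set of their own, among 72 WRKY genes in the reference gene table and 13286 annotated loci on the array. The 6 were chosen by their mean signal over all 4 arrays, which separates them from the other one, so that no level reported here is a finding. WRKY6, the dimmest of the 6, had a geometric mean signal of 195, and WRKY42, the named WRKY gene left out, had 12.2, with a limit of 63.6 for a probe set to be tested. All 6 passed that limit on each array singly, with a lowest signal of 139, and each has 1 probe set, so none was chosen over another of the same gene.

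Detached leaves of 3-week-old Col-0 wild-type plants were floated for 1 h on 0.1 mM flavin adenine dinucleotide (FAD), the flavin cofactor of many oxidoreductases, or for 1 h on water, the mock treatment. The leaves were taken at 4 h of light in a day with 16 h of light and 8 h of darkness, and both groups share the detachment and the floating. Each treatment had 2 biological replicates, each measured on 1 Affymetrix array. Whether a replicate stands for separate plants or a separate day is not in the labels, and the p-values cover only how far these samples differ, which may be technical.

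WRKY proteins are plant transcription factors named after a conserved peptide that lies beside a zinc finger, and they bind W-box elements in the promoters of their target genes, often including their own and each other's. In leaves they are best known for immune responses and for the onset of senescence. They are sorted by domain structure: ZAP1 and WRKY20 belong to group I, whose members carry a pair of WRKY domains, WRKY6 and WRKY47 to group IIb, WRKY22 to group IIe and WRKY53 to group III.

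The deposited values are linear signals in arbitrary units, scaled to a common 2% trimmed mean of 500.1 on each of the 4 arrays. With 4 arrays precision is low: the median standard error of FAD minus mock was 0.23 on the log2 scale. One array, FAD replicate 2, stood apart in the first of the sets of probe sets for added control RNAs. Its 9 first-set spike-in probe sets were lower by a median factor of 5.39 than their mean elsewhere. The 9 of the second set carry the names of the same bio and cre control RNAs. These 9 did not stand apart in this way, with a median log2 difference of 0.14. The GAPDH 3′ to 5′ signal ratio, taken from the second-set GAPDH probe sets alone, was 0.945 on FAD replicate 2. It was 1.25 to 1.34 on the other arrays. Leaf marker genes were bright, and the lowest signal of LHCB4.1, RCA, PRK and SBPASE on any array was 10600. The root marker EXPA7 and the cell division marker HTR12 stayed at or below 54.8. In bulk leaf RNA, fewer cells of a type and less RNA per cell cannot be told apart.

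No WRKY gene passed the test for FAD against mock, although all 6 had a positive log2 fold change, as had 57.5% of all tested probe sets. WRKY6 had the largest difference at 1.54-fold and WRKY22 the smallest at 1.09-fold. Only in WRKY6 and WRKY20 did both FAD arrays lie above both mock arrays, as they did in 22% of all tested probe sets. In limma, with Benjamini-Hochberg adjustment over 13648 probe sets, the adjusted p of the 6 ran from 0.667 to 0.966. Of all tested probe sets, 0% were called higher and 0.0366% lower on FAD. Those lower were 5 probe sets, which became 18 under median centring and 0 without the variance trend. With the replicate number as a second term, limma called 36 probe sets higher and 153 lower on FAD, and 0 of the WRKY genes. The labels do not say what a number shares. Other settings that change the counts of calls are given with the alternatives.

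**Figure D1:**
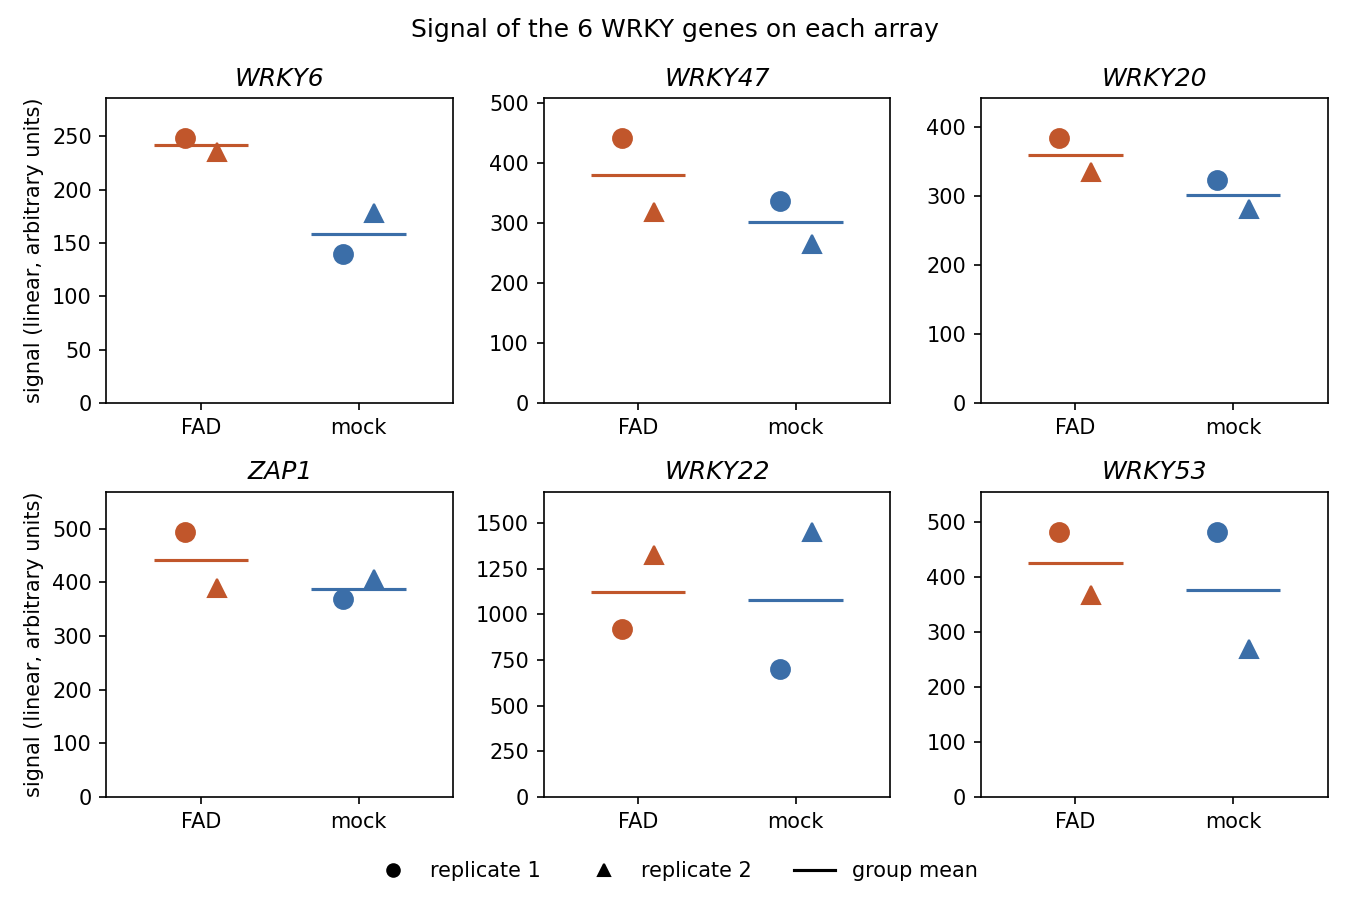
Signal of each WRKY gene (linear, arbitrary units, from 0) on the 2 FAD arrays and the 2 mock arrays, with circles for replicate 1, triangles for replicate 2 and a line at each group mean. WRKY6 and WRKY20 have both FAD arrays above both mock arrays, and in WRKY22, WRKY47 and WRKY53 the triangles and circles separate.

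WRKY6 (AT1G62300) encodes a senescence- and pathogen-induced factor that also represses the phosphate exporter gene PHO1. Its signal was 248 and 235 on FAD replicates 1 and 2, against 139 and 178 on mock replicates 1 and 2. The groups did not overlap, and the FAD arrays lay closer together than the mock arrays, with 242 ± 9.42 on FAD and 159 ± 27.4 on mock (SD, n = 2 each). The log2 fold change was 0.62 with a standard error of 0.24 and a 95% confidence interval from 0.06 to 1.17. That interval was the only one among the 6 above 0, but the gene did not pass the correction (limma unadjusted p = 0.0337, adjusted p = 0.667). At that unadjusted level, under 0.05, limma had 3.03% of all tested probe sets higher and 3.84% lower on FAD, and 3.6% had a fold change at least as high as that of WRKY6. The ratio of FAD over mock was 1.78 in the replicate 1 pair and 1.32 in the replicate 2 pair. The limma unadjusted p of WRKY6 was 0.0472 under quantile normalization and 0.0597 under median centring. It was 0.0257 without the variance trend and 0.0763 on the gene's own variance alone, so the interval does not stay above 0 in every setting. The log2 fold change was 0.44 without mock replicate 1 and 0.80 without mock replicate 2.

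WRKY47 (AT4G01720), the other group IIb gene, encodes a factor linked to cell wall genes in aluminium tolerance. It had 442 and 318 on FAD replicates 1 and 2, against 337 and 266 on mock replicates 1 and 2. FAD replicate 2 lay below mock replicate 1, so the groups overlapped, while within each same-numbered pair FAD was higher, by 1.31-fold for number 1 and 1.2-fold for number 2. The log2 fold change was 0.33, with an interval from -0.24 to 0.89 (limma adjusted p = 0.832). Means were 380 ± 87.1 on FAD and 301 ± 50.4 on mock (SD, n = 2 each). The interval includes no difference and also a rise of up to 1.86-fold. Its log2 fold change was 0.09 without FAD replicate 1, 0.56 without FAD replicate 2, 0.50 without mock replicate 1 and 0.15 without mock replicate 2.

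WRKY20 (AT4G26640) belongs to group I and was reported to activate a promoter of the starch synthesis gene APL3. Its signals were 384 and 335 on FAD replicates 1 and 2, against 323 and 282 on mock replicates 1 and 2. The lower FAD array exceeded the higher mock array by little, and the ratio of FAD over mock was 1.19 in both same-numbered pairs. The log2 fold change was 0.25, with an interval from -0.23 to 0.73 (limma adjusted p = 0.847). The means were 359 ± 35.2 on FAD and 302 ± 28.9 on mock (SD, n = 2 each). That fold change became 0.15 without FAD replicate 1 and also without mock replicate 2, and 0.35 without either of the other arrays. Both FAD arrays lay above both mock arrays in 2 of the 6 WRKY genes and in 22% of all tested probe sets.

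ZAP1 (AT2G04880), the zinc-dependent activator protein gene of group I, has been placed in nitrogen and light responses. It had 495 and 390 on FAD replicates 1 and 2, against 370 and 406 on mock replicates 1 and 2. FAD replicate 1 alone stood above the other arrays, which spanned 370 to 406. The log2 fold change was 0.18, with an interval from -0.30 to 0.66 (limma adjusted p = 0.894). The ratio of FAD over mock was 1.34 in the replicate 1 pair and 0.96 in the replicate 2 pair, so the same-numbered pairs pointed in opposite directions. FAD minus mock was 0.0081 on the log2 scale without FAD replicate 1, 0.35 without FAD replicate 2 and 0.11 without mock replicate 1.

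WRKY22 (AT4G01250) acts downstream of MAP kinases in the response to bacterial flagellin and takes part in dark-induced senescence. It had 918 and 1325 on FAD replicates 1 and 2, against 703 and 1453 on mock replicates 1 and 2. Both FAD arrays lay inside the range of the mock arrays. The log2 fold change was 0.13, with an interval from -0.68 to 0.93 (limma adjusted p = 0.966), and means were 1122 ± 287 on FAD and 1078 ± 530.4 on mock (SD, n = 2 each). It turned to -0.14 without FAD replicate 2 and to -0.40 without mock replicate 1, and was 0.39 without FAD replicate 1 and 0.65 without mock replicate 2.

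WRKY53 (AT4G23810), a regulator of the onset of leaf senescence and of defence, had 482 and 366 on FAD replicates 1 and 2, against 482 and 269 on mock replicates 1 and 2. The replicate 1 arrays were almost identical, at 482.427 on FAD and 482.426 on mock, and the replicate 2 pair had a ratio of FAD over mock of 1.36. The log2 fold change was 0.22, with an interval from -0.49 to 0.93 (limma adjusted p = 0.919), from means of 424 ± 82 on FAD and 376 ± 151 on mock (SD, n = 2 each). It was 0.0235 without FAD replicate 1, 0.42 without FAD replicate 2, 0.64 without mock replicate 1 and -0.20 without mock replicate 2. WRKY53 and WRKY22 had the widest intervals of the 6.

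**Figure D2:**
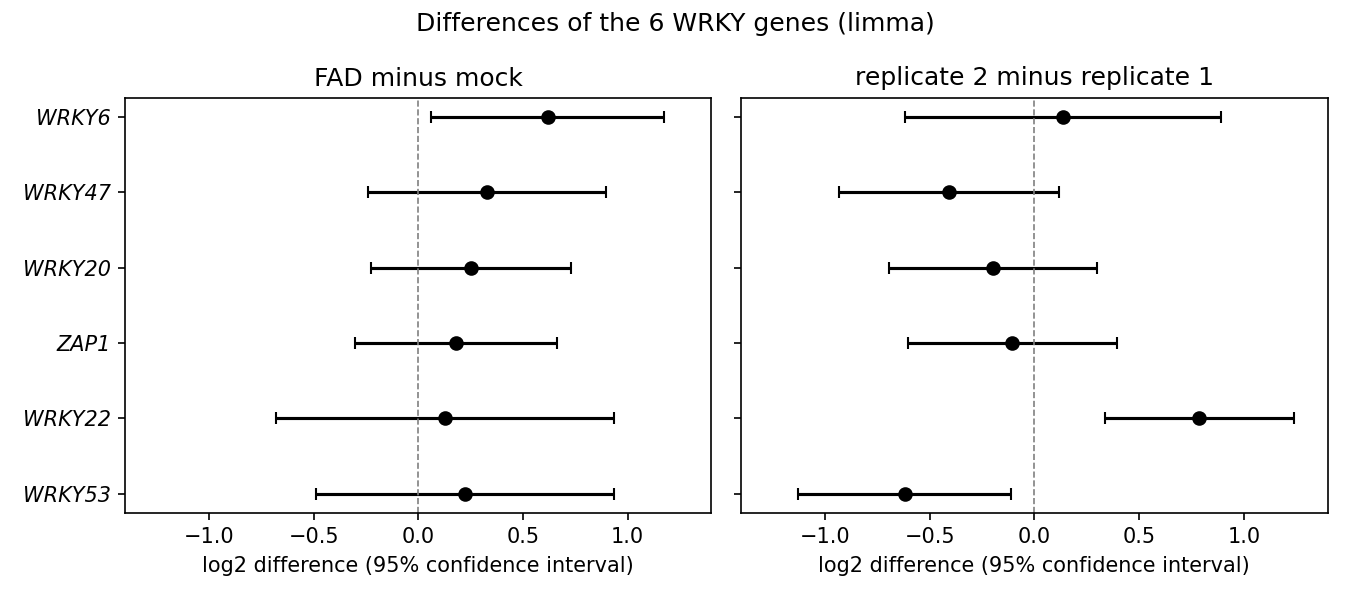
Log2 difference of each WRKY gene with its 95% confidence interval from limma, FAD minus mock on the left and replicate 2 minus replicate 1 on the right. On the left all 6 points lie above 0 and the interval of WRKY6, from 0.06 to 1.17, does not reach 0. On the right WRKY22 and WRKY53 lie on opposite sides of 0, at 0.79 and -0.62.

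As a group, the 6, chosen with earlier results of these data known, had a median log2 fold change of 0.24. The median over all tested probe sets was 0.05, and 57.5% of them were positive. Centring each array on its median turned the median of all tested probe sets to -0.04 and the share of positive values to 43.8%, and the 6 stayed positive there, between 0.04 and 0.53. FAD was higher in both same-numbered pairs in 4 of the 6, as in 34.3% of all tested probe sets: in WRKY6, WRKY47, WRKY20 and WRKY53, the last with almost no difference in the replicate 1 pair. Leaving out FAD replicate 2, the log2 fold changes were 0.66 for WRKY6, 0.56 for WRKY47, 0.35 for WRKY20, 0.35 for ZAP1, -0.14 for WRKY22 and 0.42 for WRKY53. With FAD replicate 1 left out instead they were lower for 5 of the 6, at 0.58, 0.09, 0.15, 0.0081, 0.39 and 0.02 in the same order of genes, WRKY22 being the exception. Each such fit rests on 1 FAD array, whose spread is assumed to be that of the mock arrays. None of the 6 passed in either, with a lowest limma adjusted p of 0.992 without FAD replicate 2 and 0.753 without FAD replicate 1. The guard cell marker FMA also had both FAD arrays above both mock arrays, with 160 and 256 on FAD replicates 1 and 2, against 137 and 133 on mock replicates 1 and 2, a log2 fold change of 0.58 that was 0.25 without FAD replicate 2 and 0.92 without FAD replicate 1. So did the division marker HTR12, below the limit, with 54.8 and 36 on FAD replicates 1 and 2, against 24.8 and 21.1 on mock replicates 1 and 2. The part of these markers in the WRKY values was not tested.

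Arrays with the same replicate number also differed from those with the other number. For replicate 2 minus replicate 1, 2 of the 6 WRKY genes were positive and 4 negative. Over all tested probe sets 42.5% were positive and 57.5% negative. WRKY22 was 1.73-fold higher on the replicate 2 arrays. WRKY53 and WRKY47 were lower there, with ratios of replicate 2 over replicate 1 of 0.651 and 0.754. With the replicate number as the only term none of the 6 passed, with limma adjusted p from 0.426 to 0.953, and 0% of all tested probe sets were called in either direction. At an unadjusted p under 0.05, limma had 3.83% of the tested probe sets higher and 4.27% lower on replicate 2. The labels give the number no meaning beyond the replicate.

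WRKY22 had 1325 on FAD and 1453 on mock of replicate 2, against 918 on FAD and 703 on mock of replicate 1. Both replicate 2 arrays lay above both replicate 1 arrays, as in 16.3% of all tested probe sets. The log2 difference of replicate 2 minus replicate 1 was 0.79 with a standard error of 0.19 and an interval from 0.34 to 1.24 (limma unadjusted p = 0.00405, adjusted p = 0.426). The ratio of replicate 2 over replicate 1 was 1.44 in FAD leaves and 2.07 in mock leaves. Only 1.03% of the tested probe sets had a log2 difference at least as high. With the treatment added as a second term WRKY22 passed (limma adjusted p = 0.0402), as did 0.703% of all tested probe sets in that direction, and none of the other WRKY genes did.

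WRKY53 had 366 on FAD and 269 on mock of replicate 2, against 482 on both FAD and mock of replicate 1. Both replicate 2 arrays lay below both replicate 1 arrays, as in 22.5% of all tested probe sets. The log2 difference of replicate 2 minus replicate 1 was -0.62 with a standard error of 0.22 and an interval from -1.13 to -0.11 (limma unadjusted p = 0.0234, adjusted p = 0.552). Of all tested probe sets 4.21% had a difference at least as low. The ratio of replicate 2 over replicate 1 was 0.76 in FAD leaves and 0.558 in mock leaves, so the difference was larger on the mock arrays.

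WRKY47 had 318 on FAD and 266 on mock of replicate 2, against 442 on FAD and 337 on mock of replicate 1. These did not overlap either, and the log2 difference of replicate 2 minus replicate 1 was -0.41, with an interval from -0.93 to 0.12 (limma adjusted p = 0.702). For WRKY20, ZAP1 and WRKY6 the arrays of the 2 numbers overlapped, and their differences were -0.20, -0.10 and 0.14. That of WRKY6 was -0.28 without mock replicate 1 and -0.06 without FAD replicate 2, and that of ZAP1 was 0.10 without FAD replicate 1. Without FAD replicate 2 the difference was 0.85 for WRKY22, -0.84 for WRKY53, -0.54 for WRKY47, -0.32 for WRKY20 and -0.08 for ZAP1, and none passed (lowest limma adjusted p = 0.228). Other arrays left out made some of these smaller: WRKY53 had -0.40 without mock replicate 2, and WRKY47 had -0.21 without FAD replicate 1 and -0.28 without mock replicate 2. WRKY20 had -0.07 without either of those arrays. With 1 array left out, WRKY22 ran from 0.60 to 0.98.

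**Figure D3:**
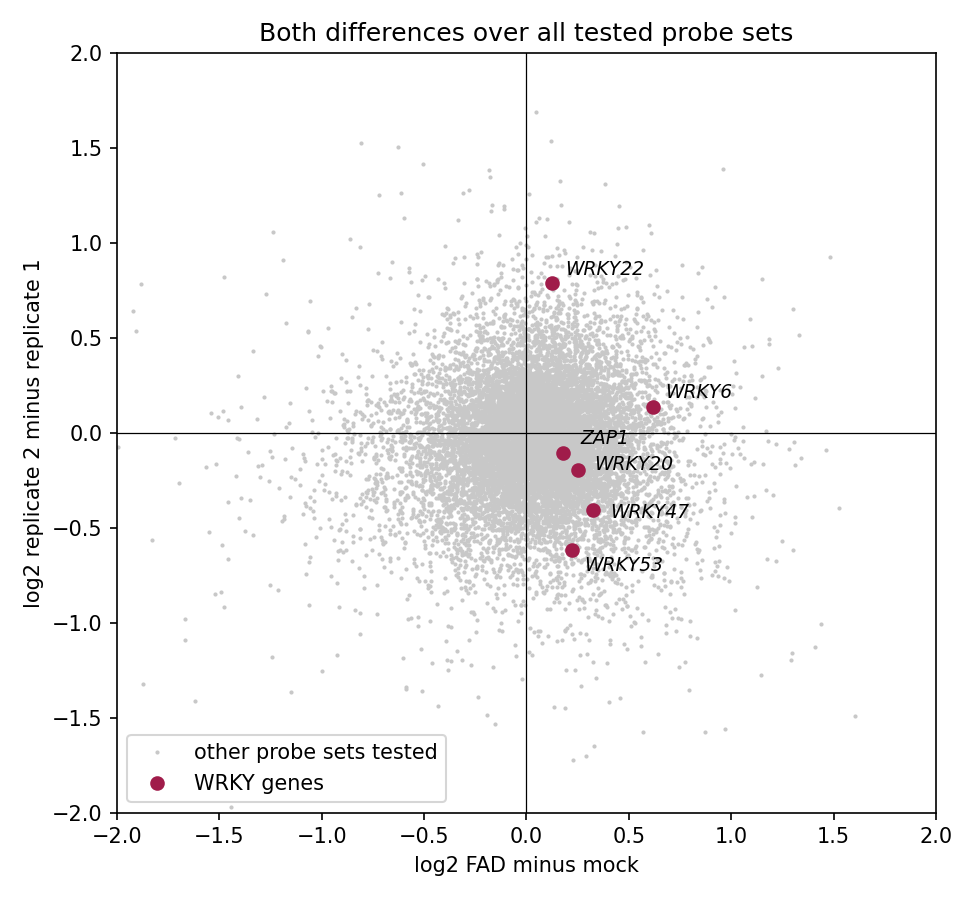
Log2 FAD minus mock (horizontal) against log2 replicate 2 minus replicate 1 (vertical) for all 13648 tested probe sets, grey for the others and dark red for the 6 WRKY genes, with both axes ending at 2 in either direction and 14 probe sets beyond them. The 6 lie right of 0, WRKY6 farthest at 0.62, and run on the vertical axis from 0.79 for WRKY22 to -0.62 for WRKY53. The 2 differences come from the same 4 arrays.

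The spread of each gene over the 4 arrays can be split exactly into a part along the treatment, a part along the replicate number and a remainder in which the FAD difference is unlike in the 2 pairs. In WRKY6, 85.3% of the squared log2 deviation lay along the treatment and 4.2% along the replicate number. WRKY20 had 61.6% along the treatment and 38.4% along the number, with almost nothing left over. These were the 2 WRKY genes whose largest part was the treatment.

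The replicate number took the largest part in 3 genes. It held 88.2% in WRKY22, with 2.25% along the treatment, and 79.5% in WRKY53, with 10.2% along the treatment. WRKY47 had 60% along the number and 38.5% along the treatment. In ZAP1 the remainder was largest at 56.8%. Over all tested probe sets the treatment was the largest part in 37%, the replicate number in 38.9% and the remainder in 24.1%. With 4 arrays each part is 1 contrast, so the shares describe these arrays and carry no error.

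**Figure D4:**
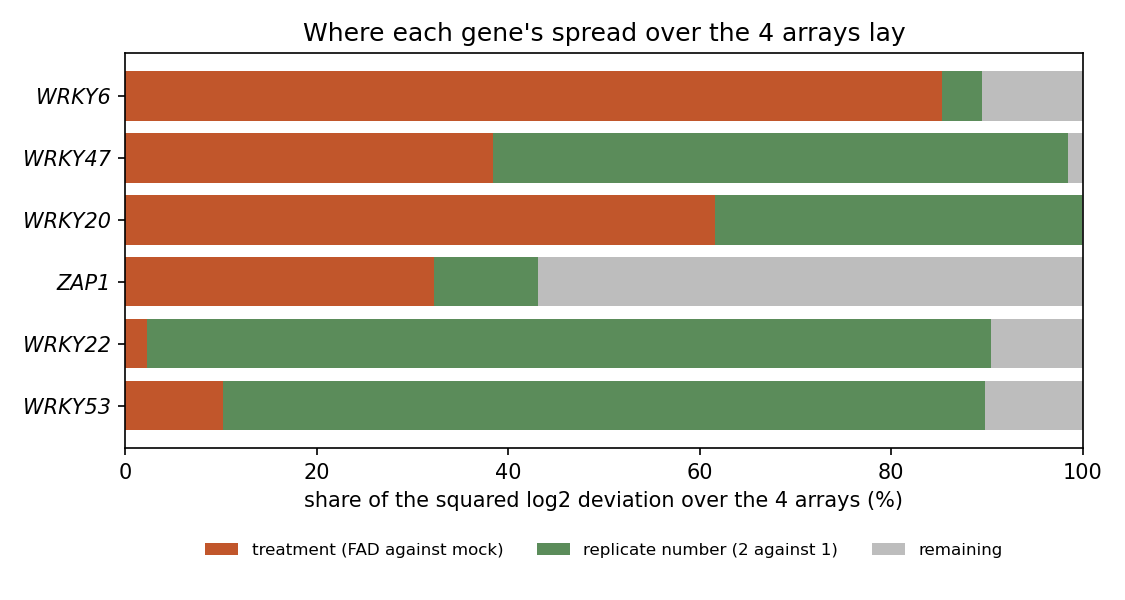
Share of the squared log2 deviation over the 4 arrays, in percent, that lay along the treatment (orange), the replicate number (green) and the remainder (grey) for each WRKY gene. The treatment takes 85.3% in WRKY6 and 2.25% in WRKY22, and the replicate number takes 88.2% in WRKY22.

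WRKY22 and WRKY53, both known from senescence, were the least alike pair over the arrays. As a measure of likeness over the 4 arrays, the root mean square difference of mean-centred log2 signals was lowest between WRKY20 and WRKY47, at 0.116, and highest between WRKY22 and WRKY53, at 0.745. WRKY6 and WRKY47 of group IIb differed by 0.318, and ZAP1 and WRKY20 of group I by 0.132. These are descriptions over 4 arrays and carry no p.

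By the same measure the named genes nearest to WRKY22 were AT1G11670 at 0.0145 and AT4G37240 at 0.0479. AT1G11670, a gene of the MATE transporter family, had 778 and 1108 on FAD replicates 1 and 2, against 583 and 1200.1 on mock replicates 1 and 2, low on both replicate 1 arrays like WRKY22. Nearest to WRKY53 were AT1G29310 at 0.0341 and AT5G60460 at 0.0342. AT1G29310 had 711 and 533 on FAD replicates 1 and 2, against 691 and 411 on mock replicates 1 and 2.

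Nearest to WRKY6 were AT1G74450 at 0.0317 and AT5G12280 at 0.0397. AT1G74450 had 1171 and 1131 on FAD replicates 1 and 2, against 693 and 841 on mock replicates 1 and 2, both FAD arrays above both mock arrays. For WRKY20 they were AT3G09630, which encodes a cytosolic ribosomal protein, at 0.00671 and AT3G62650 at 0.00803. For WRKY47 they were AT3G50370 at 0.032 and AT3G13690 at 0.0327, and for ZAP1 AT1G53440, a receptor-like kinase gene, at 0.0138 and AT1G03040 at 0.0251. Under quantile normalization only 3 of these 12 nearest genes were the same, so the names depend on the scaling. The nearest were picked from the 7344 tested probe sets with 1 gene. No typical nearest distance was computed, so the small distances are not a finding.

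Few genes around these factors could be followed, since 9 of 80 loci in 7 lists had a named probe set past the limit. None of the 9 passed for FAD against mock, with limma adjusted p from 0.582 to 0.991 and 2 at an unadjusted p under 0.05. At that level limma had 3.03% of all tested probe sets higher and 3.84% lower on FAD. Of the 9, 5 were positive, with a median log2 fold change of 0.11. Over all tested probe sets 57.5% were positive, with a median of 0.05. No regulator of WRKY53 and no jasmonate or wounding gene was among them.

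Of 15 reported WRKY targets 2 were tested. SAG101, a senescence-associated gene reported as a target of WRKY53 and also in the senescence list, had 733 and 843 on FAD replicates 1 and 2, against 512 and 813 on mock replicates 1 and 2. The groups overlapped, with a log2 fold change of 0.29 (limma adjusted p = 0.858) that was 0.18 without FAD replicate 2, -0.05 without mock replicate 1 and 0.62 without mock replicate 2. APL3, reported as a target of WRKY20, had 131 and 129 on FAD replicates 1 and 2, against 196 and 141 on mock replicates 1 and 2. The FAD arrays were the lowest, with a log2 fold change of -0.36 (limma adjusted p = 0.832) that was -0.13 without mock replicate 1 and -0.60 without mock replicate 2.

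Of 17 genes of the MAP kinase route and of WRKY-binding VQ proteins 1 was tested. BIK1, the receptor-associated kinase of flagellin signalling, had 2107 and 2685 on FAD replicates 1 and 2, against 1959 and 2980 on mock replicates 1 and 2. FAD lay inside the range of mock, and the log2 fold change was -0.02, which leaving out 1 array moved between -0.33 and 0.28. GRX480, a glutaredoxin gene induced by salicylic acid and the 1 tested of 14 genes in that list, had -0.13, between -0.68 and 0.41 with 1 array left out.

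Of 13 early immune genes 5 were tested and 4 were positive on FAD, against 57.5% of all tested probe sets. Their median log2 fold change was 0.39, in a list chosen with earlier results of these data known. CML37, a calmodulin-like gene, had 0.87 ± 0.29 and EXO, a brassinosteroid-responsive gene, had 0.49 ± 0.17 (SE), both with a limma adjusted p of 0.582. The value of CML37 was 0.49 without FAD replicate 2. PUB23, a ubiquitin ligase gene, had 0.39, which was 0.14 without mock replicate 1, 0.64 without mock replicate 2 and 0.26 without FAD replicate 2. Its relative PUB22 had 0.11, which leaving out 1 array moved between -0.24 and 0.46. STZ, a zinc finger factor gene, had -0.04, and leaving out 1 array moved it between -0.26 and 0.19.

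For replicate 2 against replicate 1, 8 of the 9 loci were positive, with a median log2 difference of 0.41, against -0.05 over all tested probe sets, of which 42.5% were positive. GRX480 had 1.04, BIK1 0.48, PUB22 0.45, SAG101 0.43, STZ 0.41, PUB23 0.38, EXO 0.24 and CML37 0.19, and APL3 was the negative one at -0.25. The lists were chosen with earlier results of these data known, so the contrast with all tested probe sets is a description only. WRKY22 and WRKY6 were also positive, and WRKY53, WRKY47, WRKY20 and ZAP1 were negative. None of the 9 passed in limma with the number as the only term, and 1, GRX480, passed with the treatment as a second term (limma adjusted p = 0.00788). With 1 array left out, EXO, CML37 and APL3 changed sign. The guard cell marker FMA had 0.32 and the phloem marker SWEET11 had -0.65 in this difference, and their part in it was not tested either.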

How the data were processed

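Leaf RNA was hybridised to 4 one-colour Affymetrix arrays, 2 per treatment. The deposited values are linear signal intensities per probe set, made with GCOS per the submitters' processing notes, which state neither version nor algorithm. The 2% trimmed mean of these intensities differed between arrays by 0.000764%, so the deposited scaling was kept.

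Signals were log2 transformed with nothing added. After 64 control probe sets were set aside, 13648 of 22746 probe sets passed a limit at the 40th percentile of the mean log2 signal (63.6). FAD against mock and replicate 2 against replicate 1 were each fitted with limma 3.58.1 in R 4.3.3 (lmFit, eBayes with trend) with 1 term, and p-values were adjusted by Benjamini-Hochberg at 0.05 over all tested probe sets. There were 2 residual degrees of freedom. An exact permutation test of 2 against 2 arrays was not used. The fit was run on 5 simulated comparisons with normal errors and variances drawn from its own fitted prior. These held no difference between replicate numbers, so they cannot test the model's assumptions.

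Gene names came from the platform annotation, with symbols brought up to date from RefSeq's TAIR10.1 table. It names 1 gene for 13513 probe sets and several for 503, and it does not list 8730, which are not analysed here by name. No coordinates are printed, since the deposited table carries no build.

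The WRKY genes and gene lists were chosen with earlier results of these data known. Named were the 6 WRKY genes, WRKY42, up to 4 genes per list by moderated t (all 5 early immune genes are given) and the 2 nearest genes of each WRKY gene. Marker genes were named for 8 of 24 loci. Alternatives covered normalization, 32 added to each signal, the limit, the variance model, array weights, a replicate block and leaving out each array. Same-numbered arrays deviated from their group means with a correlation of 0.219 across probe sets.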

Additional observations from a re-analysis of the deposited data

How the results depend on the processing

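None of the 6 WRKY genes passed for FAD against mock under any alternative run. Of 83 alternative values 80 kept their direction, but many of these could not change it. The limit, the variance model, array weights and the replicate block leave the log2 difference as it was. The 3 values that turned are given in the report and came with 1 array left out. They belong to WRKY22 (-0.398 to 0.649) and WRKY53 (-0.198 to 0.642). WRKY6 is below the 60th percentile limit and has no value there. With the replicate number as a block, limma called 36 probe sets higher and 153 lower, but none of the WRKY genes (WRKY6 adjusted p = 0.314); the labels do not say what a number shares. In place of 5 called lower there were 18 under median centring, 2 without the limit, 2 under the 60th percentile limit, 0 without the variance trend and 0 on single variances; with 1 array left out, 1 to 4 were called lower and 0 to 1 higher.

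For replicate 2 against replicate 1, the treatment as a second term called 1 WRKY gene, WRKY22, with 96 probe sets higher and 98 lower; with 1 array left out 0 to 8 were called higher and 0 to 31 lower, the most without FAD replicate 2. Of the WRKY values 3 turned: WRKY6 ran from -0.28 to 0.555 and ZAP1 from -0.315 to 0.105 with 1 array left out.

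Of the other named genes, some turned. For FAD against mock, PRK was -0.0225 with quantile normalization and -0.0569 with median centring, and SWEET11 0.0146 with quantile normalization. With 1 array left out PRK ran from -0.0658 to 0.131, SBPASE from -0.103 to 0.0101, SWEET11 from -0.45 to 0.406, PUB22 from -0.242 to 0.459, SAG101 from -0.0493 to 0.619, STZ from -0.256 to 0.186, BIK1 from -0.325 to 0.28 and GRX480 from -0.676 to 0.409. For replicate 2 against replicate 1, PRK was -0.00109 with quantile normalization; with 1 array left out APL3 ran from -0.539 to 0.0444, CML37 from -0.526 to 0.904, EXO from -0.0488 to 0.519 and FMA from -0.154 to 0.788. The cause was not tested. Of the 12 nearest genes, 12 were the same with median centring, 10 with no filter, 9 with 32 added and 3 with quantile normalization, a comparison chosen after seeing the data.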

Other observations

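GRX480 and SWEET11 are the genes of the lists that passed for replicate 2 against replicate 1 once the treatment was a second term. GRX480, a glutaredoxin gene of the salicylic acid list, had 1236 on FAD and 1315 on mock of replicate 2, against 583 on FAD and 659 on mock of replicate 1. Its log2 difference of replicate 2 minus replicate 1 was 1.04 ± 0.17 (SE, limma adjusted p = 0.248), and with the treatment as a second term it passed (limma adjusted p = 0.00788). SWEET11, a phloem sugar transporter gene, had 3787 on FAD and 4438 on mock of replicate 2, against 6852 on FAD and 6029 on mock of replicate 1, a log2 difference of -0.65 ± 0.15 (SE, limma adjusted p = 0.398, and adjusted p = 0.0366 with the treatment as a second term).

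WRKY42 had 19.6 on both FAD arrays, against 2.26 and 25.9 on mock replicates 1 and 2, signals at which the log2 scale is dominated by noise, so no difference was taken from it.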
